A study of Mus musculus with 6 samples.

Results

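STRIPAK, the striatin-interacting phosphatase and kinase complex, was described here through 9 genes of its scaffold, Strn, Strn3, Strn4, Mob4, Slmap, Sike1, Fgfr1op2, Cttnbp2nl and Ppp2r1a, chosen by name from the 14437 genes of a normalised RNA-seq table. All 9 were in the table and all 9 passed a filter on low values, which kept 14076 genes. The libraries came from endothelial cells of the cerebellum at postnatal day 9, from C57BL6 mice labelled Ccm3 knock-out (3 libraries) and wild-type (3 libraries). The sample descriptions name 1 mouse for each library. The cells were taken from dissociated cerebellum with CD45 and CD31 beads, and no source used here states the promoter, the deleted exons or the time of the deletion. The question was whether the genes of this scaffold were expressed differently where Ccm3, also called Pdcd10, had been knocked out.

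STRIPAK joins a protein phosphatase to protein kinases. Striatins, encoded by Strn, Strn3 and Strn4, are regulatory subunits of protein phosphatase 2A (PP2A) and hold the complex together, while Ppp2r1a encodes the structural A subunit that carries the catalytic subunit. Pdcd10 tethers the germinal centre kinases Stk24, Stk25 and Stk26 to the striatins, and Slmap, with Sike1 and Fgfr1op2, brings in the Hippo kinases Stk3 and Stk4. Pdcd10 is also a gene of cerebral cavernous malformation, a disease of leaky, enlarged brain vessels, so its loss removes a partner of the scaffold from endothelium.

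Several members have close relatives, and their sequences bear on whether reads could be assigned to the right gene. Coding sequences of Strn and Strn3 were identical at 65.2% of 2328 aligned bases, those of Strn and Strn4 at 60.8% of 2183, and those of Strn3 and Strn4 at 55.7% of 2214. The longest run that any pair of striatins shared without a mismatch was 17 bases. The stretch of 60 bases in which all 3 were most alike (GENCODE M21 transcripts of the GRCm38 build, written 5′ to 3′ on the coding strand) is shown with the positions that differ in capitals, and 45 of the 60 positions were identical.
Strn, coding bases 208 to 267: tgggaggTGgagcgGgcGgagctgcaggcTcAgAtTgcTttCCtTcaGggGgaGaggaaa
Strn3, coding bases 256 to 315: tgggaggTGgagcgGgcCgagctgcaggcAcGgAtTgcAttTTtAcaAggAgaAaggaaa
Strn4, coding bases 256 to 315: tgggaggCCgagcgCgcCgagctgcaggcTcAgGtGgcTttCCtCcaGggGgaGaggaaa

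Sike1 and Fgfr1op2 encode related coiled-coil proteins. Their coding sequences were identical at 61.2% of 600 aligned bases, with a longest shared run of 14 bases, and at 50 of 60 positions in their most alike stretch.
Sike1, coding bases 277 to 336: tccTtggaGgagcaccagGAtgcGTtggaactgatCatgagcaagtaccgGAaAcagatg
Fgfr1op2, coding bases 265 to 324: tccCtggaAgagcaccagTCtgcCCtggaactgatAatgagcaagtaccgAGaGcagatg

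Cttnbp2nl and its relative Cttnbp2, a partner outside the 9 members, were identical at 57.9% of 1663 aligned bases. Here too the longest shared run was 14 bases, and 48 of 60 positions matched in the most alike stretch.
Cttnbp2nl, coding bases 700 to 759: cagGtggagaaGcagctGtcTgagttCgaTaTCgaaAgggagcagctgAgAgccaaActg
Cttnbp2, coding bases 673 to 732: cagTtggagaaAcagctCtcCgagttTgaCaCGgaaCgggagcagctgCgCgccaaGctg

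No stretch of 50 bases in a coding transcript of any member occurred in a transcript of another member, of Cttnbp2 or of Ppp2r1b (Ppp2r1b encodes the alternative A subunit), so an exact match of that length told these genes apart. Stretches shared with other annotated genes made up at most 4.03% of a member's stretches, in Fgfr1op2, where 115 of 3051 matched the processed pseudogene Gm12312. They made up 3.20% in Mob4, 2.12% in Cttnbp2nl and 1.77% in Strn. Exons of Cttnbp2nl overlapped those of the antisense gene Gm40117 over 155 bases of 8138, and exons of Fgfr1op2 overlapped those of Ints13 on the other strand over 57 bases of 4619. No source used here states the strand setting of the authors' counting, so a small part of these 2 values may belong to the overlapping gene.

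The libraries held 11075769 to 20566507 recovered gene reads in the knock-out and 16281778 to 21142333 in the wild-type, and the members had between 329 and 5324 reads each. Pdcd10 itself had 230, 154 and 309 normalised reads in knock-out 1, 2 and 3, against 529, 522 and 689 in wild-type 1, 2 and 3. All 9 endothelial markers were present in every library, with sums of 125037 to 152413 in the knock-out and 141034 to 159323 in the wild-type. Within these sums the groups did not overlap for Pecam1, higher in the knock-out, or for Cldn5, Kdr and Erg, all lower. Over all genes, 25.5% did not overlap in either direction, and none of the 9 markers was called. Mural cell markers (8 of 8 present) summed to 38899 to 51278 in the knock-out and 37659 to 74670 in the wild-type, and the 4 haemoglobin genes to 5006 to 5876 in the knock-out and 9007 to 18402 in the wild-type, with no overlap (3 of the 4 fell). Markers of microglia and leukocytes (6 of 6 present, C1qa at 0 in wild-type 1) summed to 181 to 266 in the knock-out and 173 to 179 in the wild-type. These sums did not overlap either, and none of the 4 tested was called. Among the single markers only Ptprc was separate, with 80.2 to 154 in the knock-out and 37.4 to 72.0 in the wild-type. The log2 change was 1.07 for Ptprc and 0.15 for Csf1r, but -0.27 for Cx3cr1 and -0.11 for P2ry12. Wild-type 1 stood apart in its Y-linked genes, with a mean log2 level of 0.40 against 7.34 to 9.75 in the other libraries.

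None of the 9 scaffold genes was called changed in the knock-out. A gene is called changed at an adjusted p below 0.05 in limma on log2(value + 1), with Benjamini-Hochberg adjustment over all 14076 genes, and 6.24% of all genes tested were called (3.6% higher and 2.64% lower), a rate at which fewer than 1 of 9 genes would be called. edgeR and DESeq2 on the recovered reads also called 0 of the 9 members, against 6.37% and 9.75% of all genes. At an unadjusted p under 0.05 there was 1 member, Fgfr1op2, against 19% of all genes. The groups did not overlap for 2 of the 9 members, Slmap and Fgfr1op2, both higher in the knock-out, against 25.5% of all genes (12.8% of all genes did not overlap and were higher). The first of these counts is below the rate of all genes, and the second is near it in either direction together and above it for higher genes alone. The members' median log2 change was 0.029, against -0.0067 for all genes, and the change was positive for 7 members and negative for Strn4 and Mob4. Quantile scaling also made the changes of Strn, Sike1 and Ppp2r1a negative, while TMM scaling left all 9 signs as they were.

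The intervals of the changes were narrow. The 95% interval of the fold, knock-out over wild-type, lay inside 1.5-fold in either direction for 9 of 9 members, against 42% of all genes tested. Over the 9 members the lowest bound was 0.78, for Mob4, and the highest was 1.33, for Fgfr1op2. The median width of the interval was 0.45 on the log2 scale for the members and 0.83 for all genes. The members lay between the 61.2nd and the 92.8th percentile of genes by level per kilobase.

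**Figure D1:**
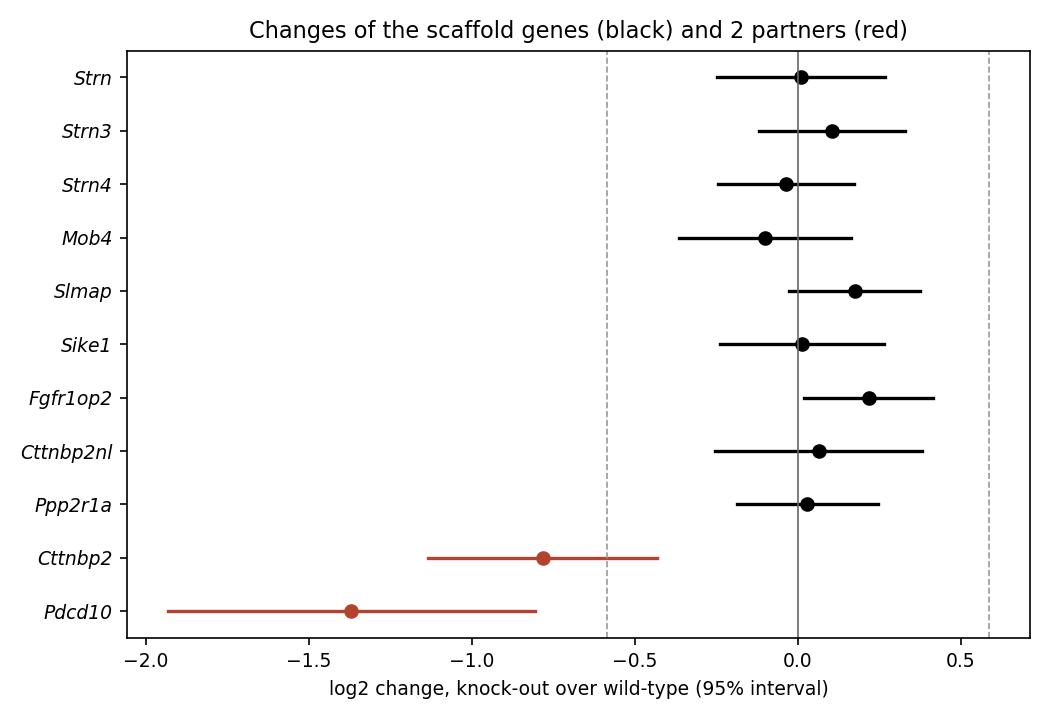
Log2 change of each scaffold gene (black) and of the partners Cttnbp2 and Pdcd10 (red), knock-out over wild-type, with 95% intervals from limma over 3 libraries a group; the dashed lines mark 1.5-fold. The 9 black intervals lie between the dashed lines, from a fold of 0.78 to 1.33, while the points of Cttnbp2 and Pdcd10 lie at -0.78 and -1.37.

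Strn (ENSMUSG00000024077, chromosome 17, 78649913 to 78737196 of GRCm38, minus strand) encodes striatin, the founding member of the family. It had 1664, 1504 and 1424 normalised reads in knock-out 1, 2 and 3, against 1429, 1414 and 1727 in wild-type 1, 2 and 3. The groups overlapped fully, with the highest value in wild-type 3 and the next in knock-out 1. The means were 1531 ± 123 in the knock-out and 1523 ± 177 in the wild-type (SD, n = 3 each), for a fold of 1.01 (95% interval 0.84 to 1.20, limma adjusted p = 0.982). The sign of this small difference turned in the fits without knock-out 1 and without wild-type 1 or 2, where the log2 change was -0.052, -0.033 and -0.041.

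Strn3 (ENSMUSG00000020954, chromosome 12, 51609632 to 51691897, minus strand) was the most abundant striatin. It had 2970, 2515 and 2624 normalised reads in knock-out 1, 2 and 3, against 2448, 2408 and 2672 in wild-type 1, 2 and 3. Wild-type 3 lay above knock-out 2 and 3, so the groups overlapped. The fold was 1.08 (0.92 to 1.26, adjusted p = 0.640), from means of 2703 ± 238 in the knock-out and 2509 ± 142 in the wild-type.

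Strn4 (ENSMUSG00000030374, chromosome 7, 16815889 to 16840931, plus strand), also known as zinedin, had 1117, 1202 and 1042 normalised reads in knock-out 1, 2 and 3. Wild-type 1, 2 and 3 had 1156, 1141 and 1147, inside the range of the knock-out. The fold was 0.97 (0.84 to 1.13, adjusted p = 0.885), and the sign turned without knock-out 3, where the log2 change was 0.014.

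Shares of the 3 striatins in their sum, taken per kilobase of exon, did not differ beyond the spread between libraries. Strn3 made up 57.7%, 54.1% and 57.5% in knock-out 1, 2 and 3, against 54.6%, 54.5% and 54.2% in wild-type 1, 2 and 3. Knock-out 2 lay below all the wild-type libraries and knock-out 1 and 3 above them. The difference of 2.00 percentage points did not exceed the spread (two-sided exact permutation test, p = 0.4, where 3 libraries against 3 cannot go below 0.1). The shares of Strn averaged 24.0% ± 0.490 in the knock-out and 24.7% ± 1.37 in the wild-type (exact p = 0.6), and those of Strn4 averaged 19.6% ± 1.80 in the knock-out and 20.8% ± 1.21 in the wild-type (exact p = 0.4). The size and order of these shares depend on the length used. With the longest coding transcript, Strn4 (321 reads per kilobase over all libraries) lay above Strn (177).

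Mob4 (ENSMUSG00000025979, chromosome 1, 55131231 to 55154899, plus strand) encodes phocein, a MOB family protein that binds striatins directly. It had 434, 363 and 373 normalised reads in knock-out 1, 2 and 3, against 406, 411 and 434 in wild-type 1, 2 and 3. Knock-out 2 and 3 lay below every wild-type library, and knock-out 1 lay near the highest wild-type one. The fold was 0.93 (0.78 to 1.12, adjusted p = 0.723), and Mob4 was the least read of the 9 members, with 329 to 616 reads a library.

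Ppp2r1a (ENSMUSG00000007564, chromosome 17, 20945311 to 20965916, plus strand) had 917, 1039 and 906 normalised reads in knock-out 1, 2 and 3. Wild-type 1, 2 and 3 had 928, 935 and 936, between the knock-out values. The fold was 1.02 (0.88 to 1.18, adjusted p = 0.920), and its sign turned without knock-out 2 (log2 change -0.034). Ppp2r1b made up the smaller part of the pair. Ppp2r1a held 83.2%, 85.7% and 84.8% of the pair per kilobase in knock-out 1, 2 and 3, against 85.2%, 86.0% and 85.9% in wild-type 1, 2 and 3, and the groups overlapped (exact permutation p = 0.2). This share was lower in the knock-out in 3 of 3 same-numbered pairs (paired exact permutation p = 0.25, the smallest possible).

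Slmap (ENSMUSG00000021870, chromosome 14, 26413168 to 26534931, minus strand) encodes a membrane-anchored protein whose FHA domain binds the phosphorylated Hippo kinases. It had 2626, 2530 and 2281 normalised reads in knock-out 1, 2 and 3, against 2190, 2188 and 2204 in wild-type 1, 2 and 3. All 3 knock-out libraries lay above all 3 wild-type ones, with knock-out 3 nearest to them. The fold was 1.13 (0.98 to 1.30, adjusted p = 0.340), and Slmap was not called in any of the alternative fits (lowest adjusted p = 0.170, without knock-out 3). The wild-type coefficient of variation of 0.391% was below the 1.86% that counting error alone gives at these reads.

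Fgfr1op2 (ENSMUSG00000040242, chromosome 6, 146577203 to 146599198, plus strand) had the largest difference among the members. It had 1225, 1194 and 1130 normalised reads in knock-out 1, 2 and 3, against 1020, 1040 and 992 in wild-type 1, 2 and 3. The groups did not overlap, and here too the wild-type coefficient of variation (2.35%) was below counting error (2.73%). The means were 1183 ± 48.6 in the knock-out and 1017 ± 24.0 in the wild-type, for a fold of 1.16 (1.01 to 1.33). Its p of 0.0347 in limma became an adjusted p = 0.217 over all genes, and across the alternative fits the adjusted p lay between 0.169 and 0.463.

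Sike1 (ENSMUSG00000027854, chromosome 3, 102995708 to 103008459, plus strand), named as a suppressor of the kinase IKK epsilon, had 2121, 1732 and 1932 normalised reads in knock-out 1, 2 and 3. Wild-type 1, 2 and 3 had 1896, 1751 and 2083, and the groups overlapped. The fold was 1.01 (0.85 to 1.20, adjusted p = 0.976), with the sign turned without knock-out 1 (log2 change -0.059) and without wild-type 2 (-0.049). As a share of the Sike1 and Fgfr1op2 sum per kilobase, Sike1 held 43.7%, 39.4% and 43.4% in knock-out 1, 2 and 3, against 45.5%, 43.0% and 48.5% in wild-type 1, 2 and 3. The difference was -3.48 percentage points and the groups overlapped (exact permutation p = 0.3). The share was lower in the knock-out in 3 of 3 same-numbered pairs, with a paired exact permutation p = 0.25, the smallest that 3 pairs can give.

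Cttnbp2nl (ENSMUSG00000062127, chromosome 3, 105001915 to 105053146, minus strand) encodes a cortactin-binding protein that associates with striatins. It varied most within a group, with 4166, 3475 and 2819 normalised reads in knock-out 1, 2 and 3, against 3341, 3220 and 3323 in wild-type 1, 2 and 3. Knock-out 1 was the highest and knock-out 3 the lowest of all 6 libraries. The means were 3487 ± 674 in the knock-out and 3294 ± 65.1 in the wild-type, for a fold of 1.05 (0.84 to 1.30, adjusted p = 0.869), and without knock-out 1 the log2 change was -0.074.

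**Figure D2:**
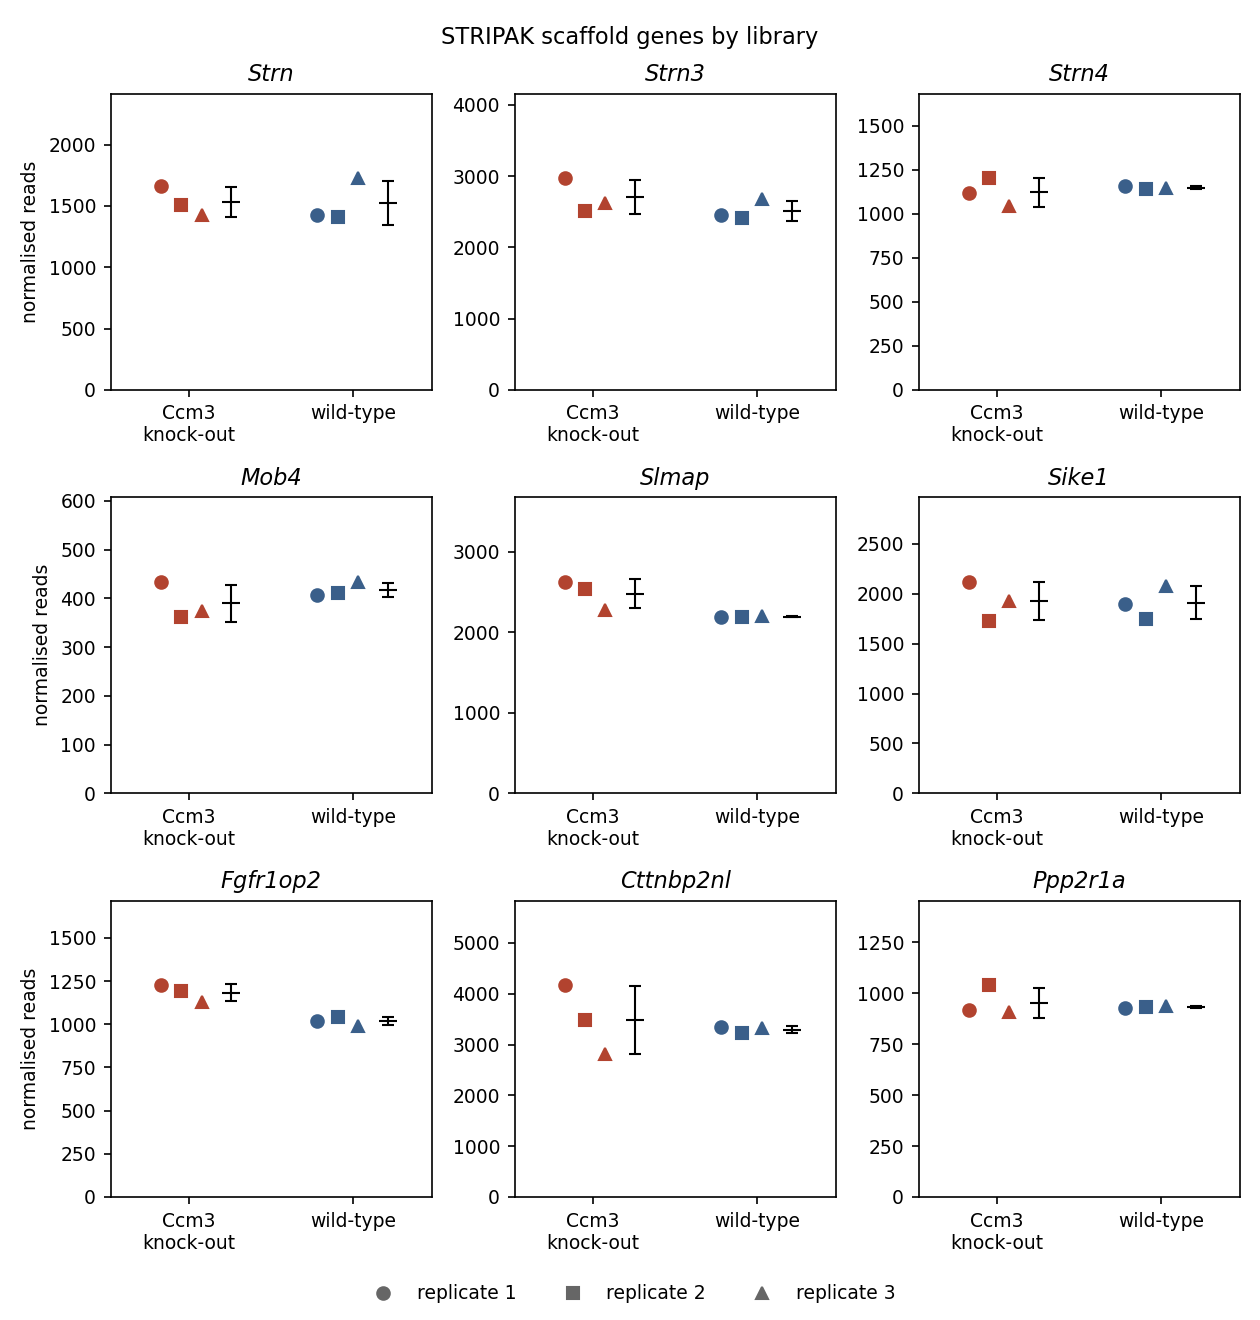
Normalised reads of the 9 scaffold genes in each library, with Ccm3 knock-out on the left and wild-type on the right of each panel; symbols mark the replicate number, the bar and whiskers the mean and SD of 3 libraries. The groups are separate only for Slmap (2281 to 2626 in the knock-out, 2188 to 2204 in the wild-type) and Fgfr1op2 (1130 to 1225 in the knock-out, 992 to 1040 in the wild-type).

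For most members, replicates of the knock-out differed more among themselves than those of the wild-type. How many of all genes did so was not counted. Over all genes, the chi-square per degree of freedom between replicates overlapped, at 25.6 to 57.4 in the knock-out and 13.9 to 38.3 in the wild-type. The coefficient of variation was larger in the knock-out for 8 of the 9 members, all but Strn, and ranged from 4.11% (Fgfr1op2) to 19.3% (Cttnbp2nl) in the knock-out and from 0.391% (Slmap) to 11.6% (Strn) in the wild-type. For 5 members the wild-type value was below the counting error, and for 0 members in the knock-out. Knock-out 1 was the highest of the 6 libraries for 5 members (Strn3, Slmap, Sike1, Fgfr1op2 and Cttnbp2nl), knock-out 2 for 2 and wild-type 3 for 2. The lowest library was knock-out 3 for 3 members (Strn4, Cttnbp2nl and Ppp2r1a), knock-out 2 for 2, wild-type 2 for 3 and wild-type 3 for 1. The sum of the 9 genes was 17240, 15554 and 14530 normalised reads in knock-out 1, 2 and 3, against 14816, 14508 and 15518 in wild-type 1, 2 and 3. Knock-out 1 and 2 lay above all the wild-type libraries and knock-out 3 among them.

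Levels of different genes were compared per kilobase of exon. Cttnbp2nl averaged 428 ± 82.8 normalised reads per kilobase in the knock-out and 405 ± 8.0 in the wild-type, and Strn3 averaged 407 ± 35.8 in the knock-out and 378 ± 21.4 in the wild-type. These 2 overlapped across libraries and lay above all the others. Slmap (308 ± 22.1 in the knock-out and 272 ± 1.06 in the wild-type) and Ppp2r1a (280 ± 21.7 in the knock-out and 274 ± 1.29 in the wild-type) came next and also overlapped. Fgfr1op2 followed with 256 ± 10.5 in the knock-out and 220 ± 5.19 in the wild-type, its highest library (265.2) just below the lowest of Ppp2r1a (265.6). Sike1 (187 ± 18.9 in the knock-out and 186 ± 16.1 in the wild-type) and Strn (173 ± 13.8 in the knock-out and 172 ± 19.9 in the wild-type) were not separate from each other, Strn4 was lower (141 ± 10.02 in the knock-out and 144 ± 0.976 in the wild-type), and Mob4 was lowest (80.3 ± 7.87 in the knock-out and 85.9 ± 3.09 in the wild-type). The order depends on the length used. With the longest coding transcript, a length chosen after seeing the data, Strn3 moved above Cttnbp2nl (856 and 686 reads per kilobase over all 6 libraries), and Strn4 (321) moved above Sike1 (260) and Strn (177).

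**Figure D3:**
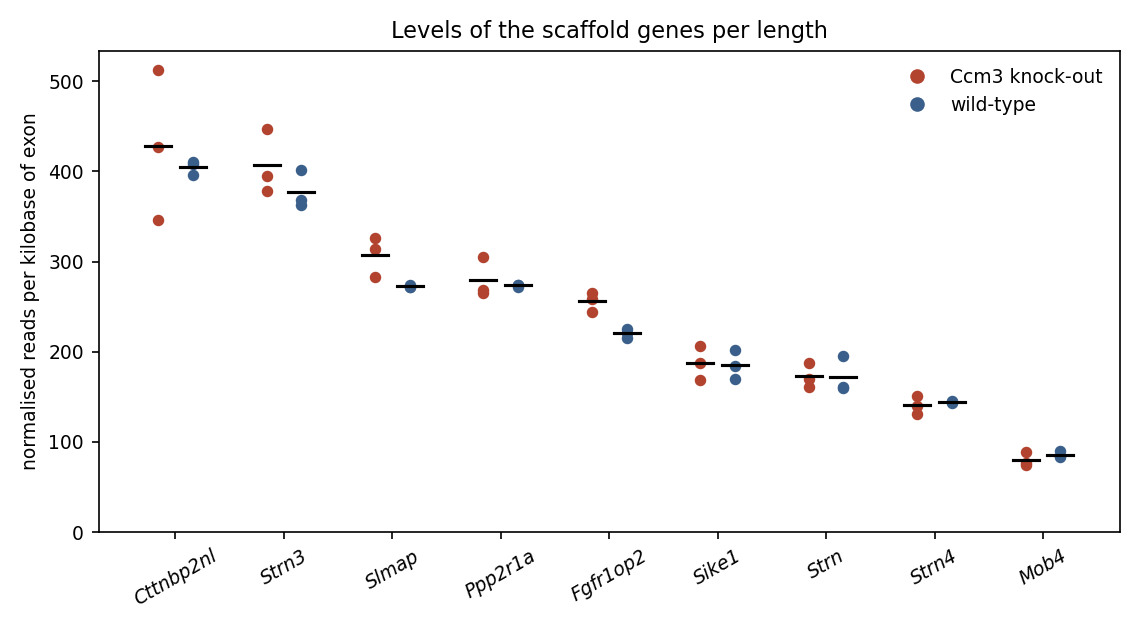
Normalised reads per kilobase of exon for the 9 scaffold genes in order of their mean, each point a library and each bar the mean of 3, with knock-out left of wild-type for each gene. Levels run from 416.6 for Cttnbp2nl to 83.1 for Mob4 as means over 6 libraries.

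The gene whose pattern over the 6 libraries was most like that of a member was found by Pearson's r among 6941 named genes with a mean above the median, as a description over 6 libraries of 2 groups. It was Cd81 for Slmap (r = 0.998), Eef1a1 for Cttnbp2nl (0.996), Pfkp for Fgfr1op2 (0.995) and Eif3l for Strn4 (0.994). For the others it was Mterf3 for Mob4 (0.993), N4bp2l2 for Sike1 (0.990), Pprc1 for Ppp2r1a (0.989), Xrcc4 for Strn3 (0.988) and Rdh11 for Strn (0.984). Each r is the highest of 6941 over only 6 libraries, a search that favours high values, so shared regulation cannot be read from it.

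Among 16 partners of the scaffold, 15 were in the table, 14 were tested, none rose, 2 fell and 12 were not called. Of all genes tested, 6.24% were called, 3.6% higher and 2.64% lower in the knock-out. The partners' median log2 change was 0.017. The 2 that fell were Pdcd10, the targeted gene (fold 0.39, 95% interval 0.26 to 0.57, adjusted p = 0.0162), and Cttnbp2. Pdcd10 missed the limit when any wild-type library was left out, at an adjusted p of 0.0513, 0.0602 and 0.0621 without libraries 1, 2 and 3, with a log2 change between -1.61 and -1.11 in the fits without 1 library. The groups did not overlap for 5 of the 14, 2 higher and 3 lower in the knock-out, against 25.5% of all genes (12.8% higher and 12.8% lower). Stk26 was not analysed here, and Traf3ip3, a partner known from lymphocytes, reached the minimum value in too few libraries to be tested.

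Cttnbp2 (ENSMUSG00000000416, chromosome 6, 18366478 to 18514843, minus strand) is best known as a cortactin-binding protein of dendritic spines in neurons. It had 379, 475 and 572 normalised reads in knock-out 1, 2 and 3, against 766, 856 and 802 in wild-type 1, 2 and 3. Every knock-out value was below every wild-type value, while its relative Cttnbp2nl overlapped. The means of Cttnbp2 were 475 ± 96.5 in the knock-out and 808 ± 45.4 in the wild-type, for a fold of 0.58 (0.46 to 0.74, adjusted p = 0.0232 in limma, 0.0262 in edgeR and 0.000219 in DESeq2). The call was lost without knock-out 2 (adjusted p = 0.0745), without wild-type 1, 2 or 3 (0.0712, 0.117 and 0.0766) and when the level of Y-linked genes was fitted (0.0632), while the log2 change stayed between -0.93 and -0.63 in the fits without 1 library. With the level of mural markers fitted, the adjusted p was 0.0420. In bulk RNA, fewer cells of a type that expresses a gene and less of its RNA per cell cannot be told apart. Of 7 markers of cerebellar neurons, 5 were in the table and none was called, and they summed to 504, 672 and 2735 in knock-out 1, 2 and 3, against 1047, 1238 and 1442 in wild-type 1, 2 and 3. Markers of astrocytes and Bergmann glia (5 of 5 present) summed to 532 to 997 in the knock-out and 763 to 2232 in the wild-type, and the part of these cells and of neurons in the fall of Cttnbp2 was not tested.

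Set against its relative, Cttnbp2nl made up 92.3%, 88.8% and 84.2% of the Cttnbp2nl and Cttnbp2 sum per kilobase in knock-out 1, 2 and 3. The shares were 82.5%, 80.3% and 81.8% in wild-type 1, 2 and 3, all below those of the knock-out. The difference was 6.88 percentage points, with an exact permutation p = 0.1, the smallest that 3 against 3 can give, and 0.48 with Benjamini-Hochberg adjustment over the 6 shares compared. This pair was chosen after the values of Cttnbp2 had been seen.

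**Figure D4:**
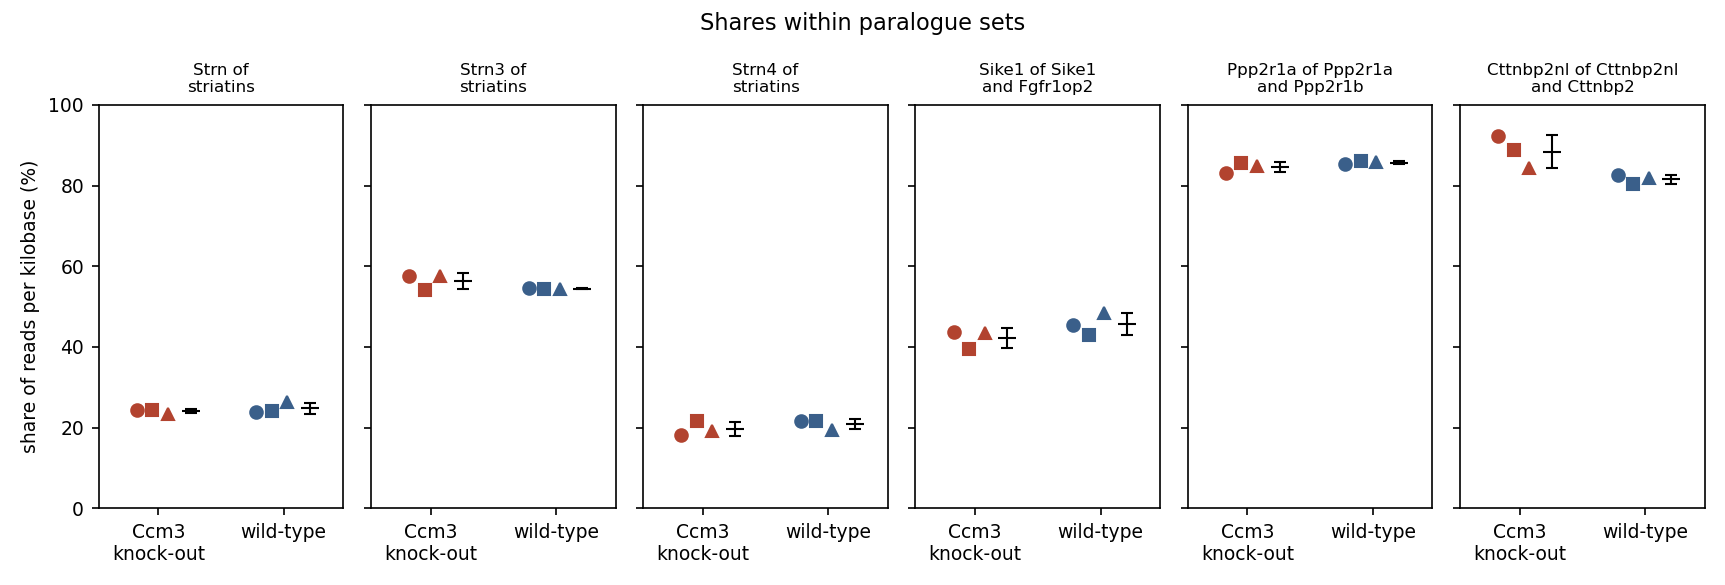
Share of each gene in the sum of its paralogue set, in percent of normalised reads per kilobase of exon, with Ccm3 knock-out left and wild-type right; circles, squares and triangles are replicates 1, 2 and 3, and the bar and whiskers are the mean and SD. Only the share of Cttnbp2nl is separate between the groups, at 84.2% to 92.3% in the knock-out and 80.3% to 82.5% in the wild-type.

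Kinases that Pdcd10 tethers to the scaffold were not called. Stk24 had 1163, 1145 and 1029 normalised reads in knock-out 1, 2 and 3, against 994, 1024 and 1059 in wild-type 1, 2 and 3 (fold 1.08, 0.94 to 1.25, adjusted p = 0.581). Stk25 had 1734, 1739 and 1421 in the knock-out, against 1761, 1832 and 1855 in the wild-type, with no overlap (fold 0.89, 0.76 to 1.06, adjusted p = 0.477). The Hippo kinases that Slmap binds were not called either. Stk4 had 671, 690 and 635 in the knock-out, against 594, 579 and 572 in the wild-type, with no overlap (fold 1.14, 0.99 to 1.32, adjusted p = 0.315), and Stk3 had a fold of 1.17 (0.99 to 1.38, adjusted p = 0.296) with overlap. The PP2A catalytic subunit genes Ppp2ca and Ppp2cb had folds of 1.01 (0.83 to 1.22) and 1.11 (0.93 to 1.32). Strip2 ran from 58.7 to 255 in the knock-out and from 76.7 to 160 in the wild-type.

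None of the 12 tested regulatory subunits of PP2A was called, against 6.24% of all genes, and 1 had an unadjusted p under 0.05, against 19%. That was Ppp2r5b, of the B56 family, with 370, 337 and 393 normalised reads in knock-out 1, 2 and 3, against 266, 266 and 275 in wild-type 1, 2 and 3. The groups did not overlap, and the fold was 1.36 (1.13 to 1.63, adjusted p = 0.0653 in limma). It was called by DESeq2 (adjusted p = 0.0295) and with array weights (0.0428) but not by edgeR (0.0706). Ppp2r2d, the next by p, had a fold of 1.14 (0.95 to 1.36, adjusted p = 0.430). Ppp2r2c, a subunit of the B55 family known from neurons, had 185, 260 and 779 in knock-out 1, 2 and 3, against 453, 441 and 828 in wild-type 1, 2 and 3, and was called lower only without knock-out 3 (adjusted p = 0.0428). Knock-out 3 also had the highest sum of neuronal markers, 2735, of which Pax6 made up 1492. Neurod1, Rbfox3 and Snap25 were highest in knock-out 3 too, while Calb1 went the other way (26.1 in knock-out 3 and 330 in wild-type 1). Markers of the oligodendrocyte lineage had their highest sums in wild-type 3 (8092) and knock-out 3 (3711), against 1043 to 2178 in the other libraries. The part of either cell type in this call was not tested. Of 10 modifiers and inhibitors of PP2A, 0 were called by limma, edgeR or DESeq2, against 6.24%, 6.37% and 9.75% of all genes. At an unadjusted p under 0.05 in limma there were 0 of these 10, against 19% of all genes. The 2 with the smallest p were Tiprl (fold 1.08, 0.91 to 1.29) and the inhibitor Set (fold 0.94, 0.79 to 1.12).

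None of 12 tested genes of the MOB family and the core Hippo pathway was called, against 6.24% of all genes. An unadjusted p under 0.05 was found for 1, against 19% of all genes. Lats2, the kinase that phosphorylates the coactivators YAP and TAZ, had 3217, 3042 and 2865 normalised reads in knock-out 1, 2 and 3, against 2434, 2397 and 2581 in wild-type 1, 2 and 3. The groups did not overlap, with a fold of 1.23 (1.07 to 1.41, adjusted p = 0.0946 in limma, 0.0873 in edgeR and 0.0260 in DESeq2). Wwc2, an adaptor that activates Lats kinases, had a fold of 1.15 (1.00 to 1.33, adjusted p = 0.275). The list's median log2 change was 0.14, against -0.0067 for all genes. The groups did not overlap for 3 of the 12, all higher in the knock-out, against 25.5% of all genes in either direction and 12.8% higher.

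**Figure D5:**
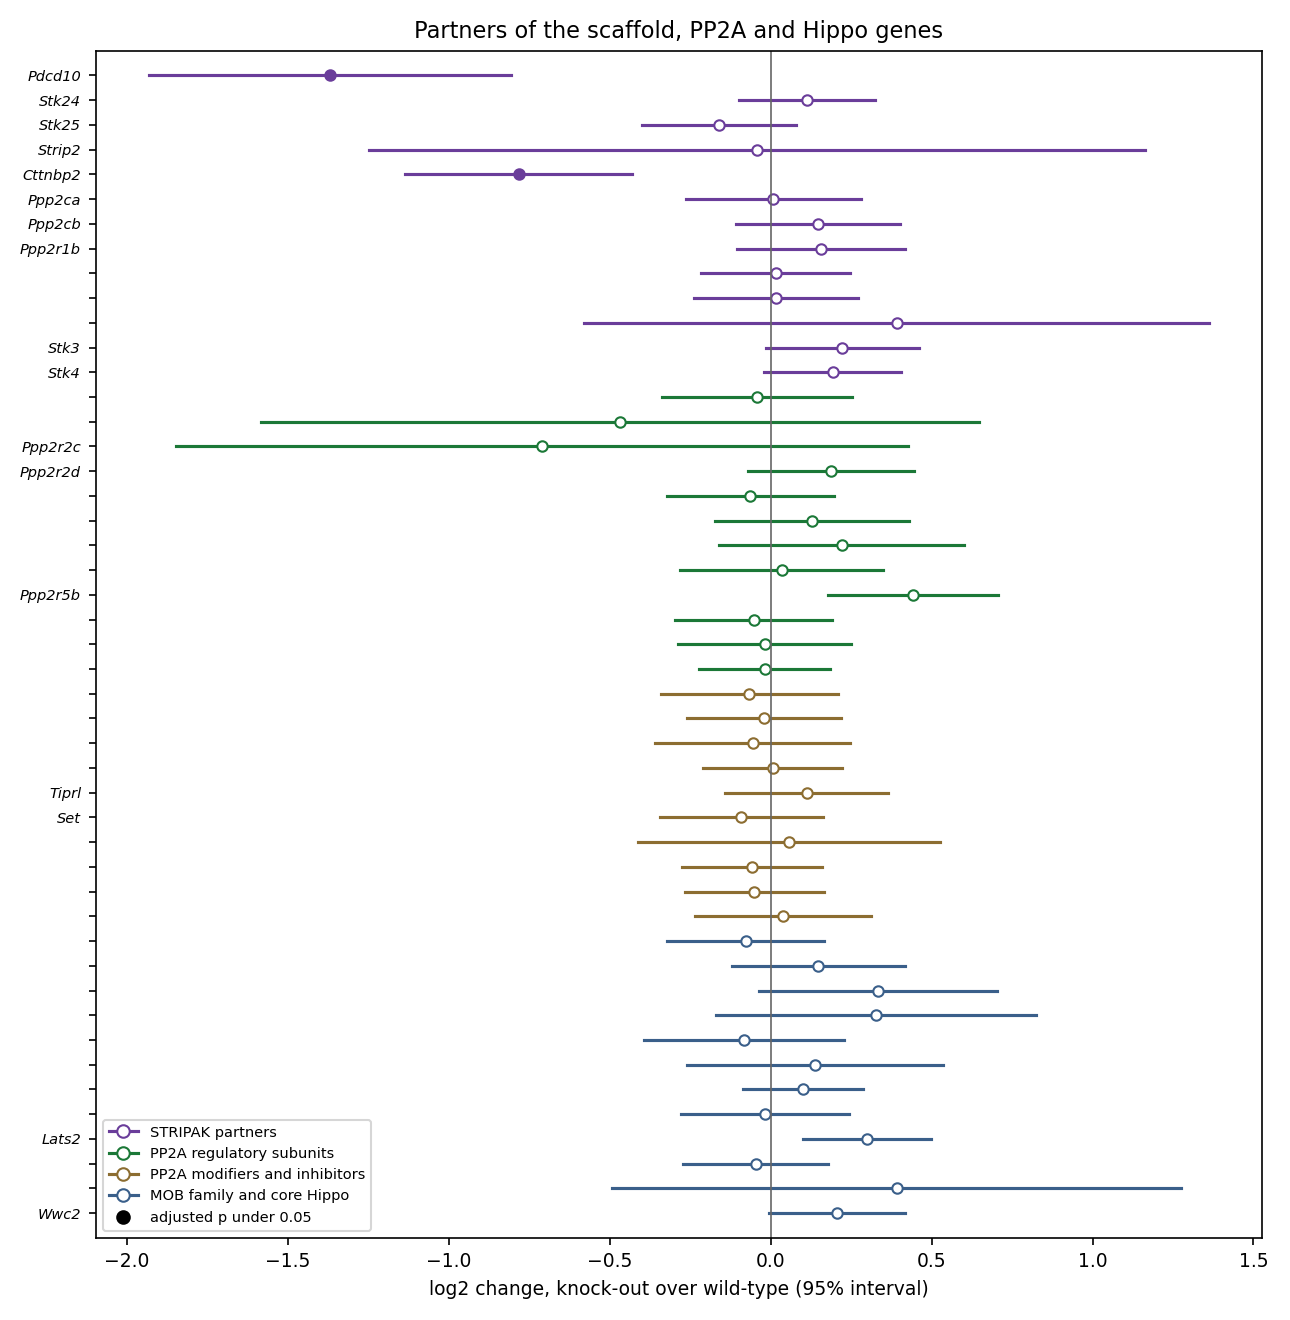
Log2 change, knock-out over wild-type, with 95% intervals from limma for tested genes of 4 lists, with the names of those described in the text; filled points had an adjusted p under 0.05. Pdcd10 and Cttnbp2 are the 2 filled points, at -1.37 and -0.78.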

How the data were processed

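Values in the deposited table are a signal, each library's gene counts scaled by a size factor of the authors. In every library they were whole multiples of 1 step (tolerance 0.01 read, 100% of values), which gave back the reads. Trim Galore, STAR 2.5.3a, GRCm38 and DESeq2 are named in the submitters' processing notes; the read counter, annotation and strand setting are stated in no source used here. Genes reaching 10 in 3 or more libraries were kept, and tested as log2(value + 1) with limma 3.58.1 (R 4.3.3, mean-variance trend, two-sided, Benjamini-Hochberg). edgeR 4.0.16 and DESeq2 1.42.0 ran on recovered reads as alternatives, and the fits were tested on simulated data. Fold changes understate the change of low genes. Lengths are unions of GENCODE M21 exons; coding sequences were aligned with MAFFT 7.526. Intervals and p-values of limma rest on the spread between 3 libraries a group, with each gene's variance drawn toward a trend over all genes. An interval can thus be narrower or wider than the gene's own spread alone would give.

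The members and the gene lists were chosen with earlier results of these data known. Named besides the members were, for each of the 4 lists, every called gene and the 2 with the smallest p, and for each member the gene of most like pattern. Stk24, Stk25, Stk3, Stk4, Ppp2ca, Ppp2cb, Strip2, Traf3ip3, Ppp2r1b and Ppp2r2c were added for their roles or after their values were seen. The values of 1 partner, counted in its list, are not reported here. Replicate numbers, which come from the titles, met the limit of 0.1 set for pairing. Deviations of same-numbered libraries from their group means had correlations of 0.102, 0.110 and 0.192. Knock-out 2 correlated more with wild-type 1 (0.295), and knock-out 1 slightly more with wild-type 3 (0.1095). Knock-out 3 correlated almost as much with wild-type 2 (0.191) as with wild-type 3. The numbers thus do not establish pairs, and the paired results are given only as a check. Replicates of a group differed by far more than sampling noise (chi-square per degree of freedom 13.9 to 57.4).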

Additional observations from a re-analysis of the deposited data

How the results depend on the processing

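The number of members called was 0 in each of the 18 alternative settings, and of 162 member changes recomputed, 147 kept their sign and 15 turned it; none was called (lowest adjusted p = 0.169). Each turn was of a change that was not called, and the cause was not tested. With quantile scaling the log2 changes of Strn, Sike1 and Ppp2r1a were -0.014, -0.025 and -0.0081. With the mural marker level in the fit those of Strn and Sike1 were -0.038 and -0.033, and with the Y-linked level -0.025 and -0.0016. Without 1 library they ranged from -0.052 to 0.10 for Strn, -0.089 to 0.014 for Strn4 and -0.059 to 0.087 for Sike1. The ranges were -0.074 to 0.21 for Cttnbp2nl, -0.034 to 0.065 for Ppp2r1a and -0.16 to 0.021 for the PP2A inhibitor Set. The count of called genes over the 4 lists, 2 in the report, was 4 with DESeq2 and 4 with array weights (Ppp2r5b and Lats2 added), 1 with the Y-linked level and 0 to 3 without 1 library, with 0 without wild-type 1, 2 or 3, where Pdcd10 had adjusted p = 0.0513, 0.0602 and 0.0621. The count of members called with the replicate block was 0 and that of the lists 2, so pairing changed no call. The 6 share differences moved by less than the pooled SD of both groups without division by length and with the longest coding transcript. Leaving out 1 of 3 libraries cannot move a difference by as much as that SD, so this limit could not test those fits. Without 1 library the share differences ran, in percentage points, from -1.17 to 0.031 for Strn, 1.39 to 3.15 for Strn3, -2.24 to -0.50 for Strn4, -4.80 to -2.07 for Sike1, -1.73 to -0.48 for Ppp2r1a and 4.97 to 8.98 for Cttnbp2nl. A permutation within same-numbered pairs, added after seeing the data, gave exact p = 0.25 to 1. Over all genes, 507 rose and 372 fell, against 805 and 568 with DESeq2, 271 and 186 with the Y-linked level, and 185 to 637 and 98 to 384 without 1 library, the fewest without wild-type 2. Counting error alone gave the members a coefficient of variation of 1.52% (Cttnbp2nl) to 4.72% (Mob4) for 1 value at the mean reads of a group. A difference between 2 libraries carries more error than that. Differences of this size or smaller between single libraries thus could not be told from counting error.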
